A study of Homo sapiens with 3 samples.

Results

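The genes described here encode the voltage-gated sodium and calcium channels, the potassium channels and the auxiliary subunits that shape electrical excitability in neurons. They were taken from a list chosen with earlier results of these data known, so counts among them are descriptive and no independent result. The list held 47 genes, and every probe set that names such a gene alone was used. Of these, 43 genes were measured, by 115 probe sets of the 41091 that name a single gene, and CACNB4, KCNA2, KCNN2 and KCNJ3 were not analysed here. RNA came from 3 samples, each hybridized once to an Affymetrix U133 Plus 2.0 array. They were the untreated neuroblastoma cell line IMR-32, the untreated neuroblastoma cell line NGP, and a reference pooled from 16 different cancer cell lines. The labels do not name the pooled lines, and no treatment of them is described. Both neuroblastoma lines carry amplified MYCN. NGP and IMR-32 were grown in different media, so that line and medium cannot be told apart, and each is a single line and a single RNA sample.

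Voltage-gated sodium channels open at the start of the action potential, potassium channels end it and set the resting potential, and calcium channels couple the electrical signal to secretion and transcription. Pore-forming alpha subunits carry the current, while beta and alpha2delta subunits set how many channels reach the membrane and how they gate. Neuroblastoma arises from the sympathoadrenal lineage of the neural crest, whose mature neurons and chromaffin cells are electrically excitable.

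The authors deposited linear MAS5 intensities, called signals here, scaled so that each array has a trimmed mean of 500. The array medians were 89.9 in IMR-32, 98.8 in NGP and 119 in the pool, and a probe set below the median of its array is called dim here. The signals of different probe sets are not comparable, so only the same probe set is compared between arrays. Ratios are log2 of one array over another, and a gene takes the median ratio of its probe sets. It was called overexpressed or underexpressed when its ratio lay within the top or bottom 7% of the 19775 genes of that comparison. The cut-offs were 1.68 and -2.83 when IMR-32 was set over the pool, 1.84 and -2.88 when NGP was, and 1.95 and -1.84 between the lines. With 1 array per sample there is no replicate check and no p-value. The spread that can be given is that between probe sets of a gene, with a standard deviation of 1.31, 1.41 and 1.28 in the 3 comparisons over 10523 genes with several probe sets. All of the comparisons share arrays, so a high or low signal on 1 array enters several ratios.

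The line identities were read from marker genes. Each of the 12 measured sympathoadrenal markers had at least 1 probe set at or above the array median in both lines. Their summed signal, of the median over the probe sets of each gene, was 33792 in IMR-32, 78542 in NGP and 8653 in the pool. All 12 had a ratio above 0 in NGP over the pool and 8 did in IMR-32, where TH (-1.40), GATA2 (-1.34), DBH (-0.33) and CHGB (-0.01) lay below it. The 5 epithelial markers summed to 371 in IMR-32, 284 in NGP and 56210 in the pool. The 8 mesenchymal markers summed to 6764, 11595 and 16916, of which VIM alone gave 5546, 9888 and 10847. All 8 had a ratio over the pool below 0 in both lines. The 4 Schwann cell markers summed to 90.5, 137 and 482. Of these SOX10 and S100B were dim on all 3 arrays, while MBP and ERBB3 each had a probe set at or above the median on every array. Ratios over the pool therefore set a neuroblastoma line against a mixture rich in epithelial RNA, and in these bulk samples more cells with a transcript and more transcript per cell cannot be told apart.

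Of the 43 listed channel genes, more were overexpressed in NGP than in IMR-32. Among 85 other channel genes the order was reversed, with 11 overexpressed in IMR-32 (12.9%) and 6 in NGP (7.06%). In IMR-32, 9 of 43 were overexpressed (20.9%) and 3 underexpressed (6.98%), against a share of 7.0% of all genes at each end by definition. In NGP, 15 of 43 were overexpressed (34.9%) and 1 underexpressed (2.33%), against the same 7.0% of all genes. For IMR-32 the median ratio was -0.19 among the channel genes and -0.23 among all genes. For NGP these medians were 0.32 and -0.22. Set directly against IMR-32, NGP was overexpressed for 8 of 43 (18.6%) and underexpressed for 3 (6.98%), with the share over all genes again at 7.0% in each direction. In that comparison 29 of the 43 lay above 0 and the median was 0.59, against 0.02 over all genes. By class, 3 of the 8 sodium channel genes, 1 of the 13 calcium channel genes and 5 of the 22 potassium channel genes were overexpressed in IMR-32, and 4, 4 and 7 in NGP. Of these 3 groups by ion, the sodium channel genes had the highest median in NGP, at 1.94, against 0.32 for calcium and -0.22 for potassium. Above 0 were 7 of the 8 sodium channel genes, against 42.3% of all genes. The 5 measured sodium channel genes outside the list had a median of 0.34. Among finer classes, the 3 listed calcium alpha2delta subunits had a higher median, at 2.50. The difference between the lines in the number of overexpressed genes was not tested.

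**Figure D1:**
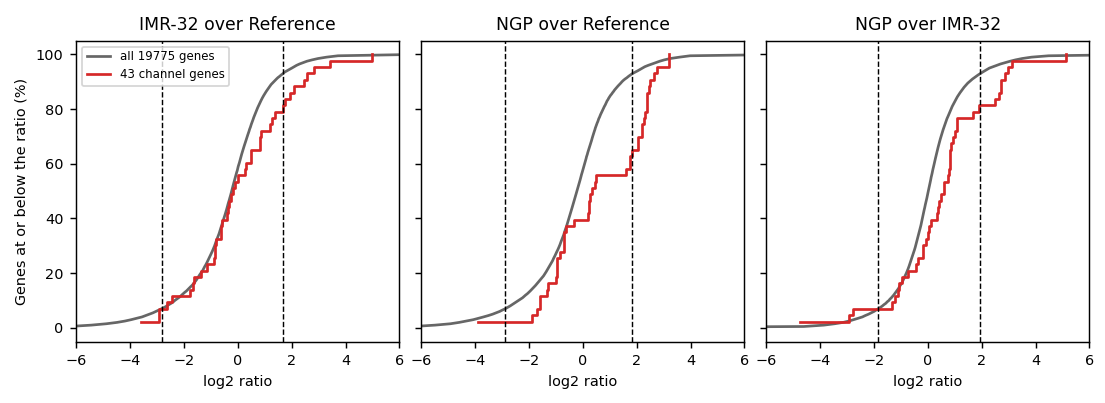
Cumulative share of genes (y-axis, percent) at or below a log2 ratio (x-axis) for 43 channel genes (red) and all 19775 genes (grey) in the 3 comparisons, with the cut-offs as dashed lines. In NGP over the pool the channel genes run far to the right of all genes above 0, where 15 of 43 pass the upper cut-off, while in IMR-32 the curves lie close together up to the median.

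Many of these genes gave weak signals. Of the 115 probe sets, 45 were at or above the array median in IMR-32 (39.1%), 49 in NGP (42.6%) and 30 in the pool (26.1%). Of all probe sets with 1 gene, 55.5%, 54.9% and 56.6% were. On every array, all probe sets were dim for 8 of the genes: SCN4A, SCN2B, CACNA1E, CACNA2D3, KCNA5, KCND1, KCNH5 and KCNK9. A ratio between dim signals is less certain. All 9 genes overexpressed in IMR-32 and 14 of the 15 in NGP had a probe set whose higher signal was not dim, the exception being CACNA2D3. None of the 3 genes underexpressed in IMR-32 had one. The higher signal was that of the line for the overexpressed genes and that of the pool for the underexpressed ones. These counts are thus no independent check of the calls, and the shares over all called genes were not computed.

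**Figure D2:**
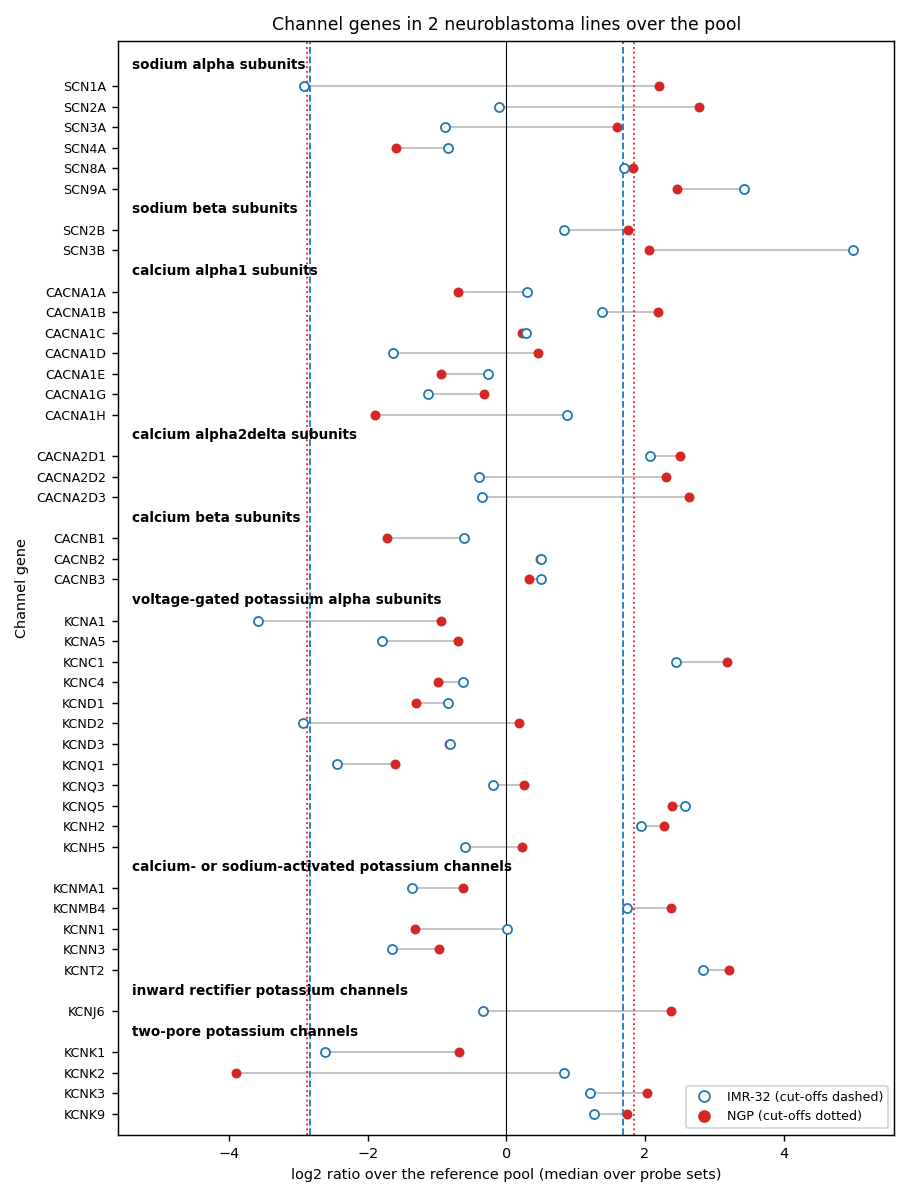
Log2 ratio over the reference pool (x-axis) of each of the 43 channel genes (y-axis, by channel class) as open circles for IMR-32 and filled circles for NGP, with each line's cut-offs drawn vertically, dashed or dotted. SCN3B in IMR-32 (5.0) lies farthest to the right, and SCN1A lies beyond the lower cut-off in IMR-32 and beyond the upper one in NGP.

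The promoters of genes that moved alike in the lines, and of genes that separated them, are shown first. RefSeq sequences (GRCh38.p14) were found for 33 of the 43 genes and not for CACNA1G, CACNA1H, KCNA1, KCNK9, KCNMB4, KCNQ1, KCNQ3, SCN3A, SCN3B and SCN4A. The 250 bases before the outermost transcription start are printed 5′ to 3′ on the gene strand, with CG dinucleotides in capitals. KCNQ5 (chr6:72621814-72622063, plus strand) and KCNT2 (chr1:196608441-196608690, minus strand) were overexpressed in both lines under each setting tried. SCN1A (chr2:166149162-166149411, minus strand) and SCN2A (chr2:165239164-165239413, plus strand) were overexpressed in NGP and not in IMR-32.
KCNQ5: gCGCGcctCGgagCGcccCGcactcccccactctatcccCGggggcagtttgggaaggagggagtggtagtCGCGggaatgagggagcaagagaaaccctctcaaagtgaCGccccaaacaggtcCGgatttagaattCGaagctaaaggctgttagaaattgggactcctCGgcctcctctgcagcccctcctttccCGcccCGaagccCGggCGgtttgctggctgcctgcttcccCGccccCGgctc
KCNT2: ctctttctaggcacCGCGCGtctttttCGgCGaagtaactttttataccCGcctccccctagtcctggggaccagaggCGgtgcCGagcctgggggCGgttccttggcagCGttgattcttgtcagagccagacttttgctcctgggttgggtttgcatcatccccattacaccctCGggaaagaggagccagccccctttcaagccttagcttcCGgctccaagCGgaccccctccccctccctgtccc
SCN1A: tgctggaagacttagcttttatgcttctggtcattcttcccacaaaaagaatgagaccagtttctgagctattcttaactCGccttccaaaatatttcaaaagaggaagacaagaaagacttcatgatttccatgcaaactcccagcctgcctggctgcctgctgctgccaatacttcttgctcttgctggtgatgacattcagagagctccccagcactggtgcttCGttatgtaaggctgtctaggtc
SCN2A: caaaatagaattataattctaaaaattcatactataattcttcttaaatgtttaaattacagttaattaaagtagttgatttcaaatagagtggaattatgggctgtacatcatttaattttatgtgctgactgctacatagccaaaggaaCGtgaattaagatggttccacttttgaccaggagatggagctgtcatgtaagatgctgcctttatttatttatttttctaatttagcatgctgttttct

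The KCNQ5 and KCNT2 windows held 18 and 13 CG dinucleotides at a GC content of 64.0% and 60.4%, and the SCN1A and SCN2A windows held 2 and 1 at 45.6% and 29.2%. Other genes that separated the lines had GC-rich windows, with 31 CG dinucleotides and 80.8% for CACNA2D3 and 25 and 70.0% for KCNJ6, so that no contrast between the groups is read from the printed windows. Of 28 channel genes with a window at the outermost start, 24 had a GC content of at least 50%. The 4 below it were SCN1A, SCN2A, SCN2B and KCNK2. Of all 35114 windows of this length, 31.9% lay below 50%. These include windows at inner starts, so the shares are of unlike sets. The E-box CACGTG, a palindrome that MYC family proteins bind, was found in 2 of the 52 windows of the channel genes (3.85%), against 6.35% of all windows. One began 45 bases before the start of CACNA1B, and the other lay before an inner start of KCND2. A match of these letters is a description and not a binding site.

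Sodium channel alpha subunits differed most between the lines for the neighbouring genes of the cluster on chromosome 2 (GRCh38.p14, from SCN3A at 165087526 to SCN9A, which ends at 166375987). SCN1A, which encodes the channel Nav1.1, had signals of 8.86 and 5.09 in IMR-32, 139 and 396 in NGP and 43.6 and 59.2 in the pool over its 2 probe sets. Both probe sets were highest in NGP and lowest in IMR-32, and dim in IMR-32 and the pool. The ratio was -2.92 in IMR-32 over the pool, 2.21 in NGP (4.62-fold) and 5.13 between NGP and IMR-32.

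SCN2A, which encodes Nav1.2, had signals of 77.9 and 5.84 in IMR-32, 101 and 246 in NGP and 33.7 and 15.7 in the pool. NGP was the highest array for each probe set, but by only 0.37 over IMR-32 for the first, which is the brighter by its mean log2 signal. Its ratio in NGP was 2.77 against the pool and 2.88 against IMR-32, and in IMR-32 it was -0.11 over the pool. With the brightest probe set both NGP calls were lost (1.58 and 0.37). For SCN3A, which encodes Nav1.3 of the developing nervous system, 1 probe set rose from 84.5 in IMR-32 and 113 in the pool to 1762 in NGP. The other was dim on each array, at 41.7 in IMR-32, 62.1 in NGP and 105 in the pool. The median of the pair was 2.48 in NGP over IMR-32, past the cut-off, and 1.60 in NGP over the pool, below it. With the brightest probe set NGP over the pool was 3.96. The bright probe set is of the _s_at kind, which can match several transcripts, and signal shared between these related genes was not tested.

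SCN9A, the next gene of the cluster, encodes Nav1.7 of sympathetic and sensory neurons. Its signals were 141 and 127 in IMR-32, 39.1 and 119 in NGP and 21.3 and 7.27 in the pool. Both lines lay above the pool for each probe set, and IMR-32 was the higher line. The ratios over the pool were 3.43 in IMR-32 (10.8-fold) and 2.46 in NGP (5.49-fold), and NGP over IMR-32 was -0.97. With the brightest probe set the NGP ratio was 0.88, below the cut-off.

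SCN8A, which encodes Nav1.6, lay close to the cut-off in each line. Its 6 probe sets spread between 0.28 and 3.31 in IMR-32 around a median of 1.69, and between -0.90 and 3.32 in NGP around a median of 1.82. It therefore counted as overexpressed in IMR-32 and not in NGP, although NGP over IMR-32 was 0.12. With the brightest probe set the IMR-32 ratio was 0.68, and the call was lost. SCN4A, the channel of skeletal muscle, was dim, with signals of 23.4, 13.9 and 41.8 in IMR-32, NGP and the pool.

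Of the sodium channel beta subunits, SCN3B had the highest ratio of all the channel genes in IMR-32. Its 2 probe sets had signals of 1247 and 1471 in IMR-32, 210 and 150 in NGP and 15.1 and 119 in the pool. IMR-32 was highest for each probe set, and NGP lay between IMR-32 and the pool. The ratio over the pool was 5.0 in IMR-32 (31.9-fold), within the probe set values of 3.63 and 6.36, and 2.06 in NGP, with probe sets at 0.33 and 3.79. NGP over IMR-32 was -2.93, with -2.57 and -3.30 for the probe sets. The NGP call over the pool was lost with the brightest probe set (0.33). SCN3B and SCN2B lie on distal 11q (chromosome 11, starts at 123629188 and 118162806), a region that the study describes as lost in NGP. The copy number arrays were not analysed here, and the part of the loss in the lower SCN3B signal was not tested. SCN2B was dim on all arrays, with a ratio of 0.83 in IMR-32, 1.76 in NGP and 0.93 in NGP over IMR-32.

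Of the 7 calcium channel alpha1 subunits, 0 were called over the pool in IMR-32 and 1 in NGP, where 14% of all genes lie past either cut-off. The called gene was CACNA1B, the N-type channel of transmitter release. Its signals at the bright probe set were 996 in IMR-32, 1497 in NGP and 137 in the pool, while the other probe set was dim at 11.6, 23.6 and 12.4. The bright probe set was thus well above the pool in both lines, and the gene ratio was 1.38 in IMR-32 and 2.19 in NGP. With the brightest probe set it was 2.86 in IMR-32, which passed the cut-off.

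CACNA1H, a low-voltage-activated T-type channel, separated the lines. Its signals were 166 and 128 in IMR-32 and 15.4 and 29.8 in NGP, against 25.8 and 243 in the pool. NGP was the lowest array for both probe sets, and the probe sets disagreed on the order of IMR-32 and the pool. NGP over IMR-32 was -2.77. CACNA1D, an L-type channel, was higher in NGP than in IMR-32 in all 4 probe sets, by 1.35 to 3.40, and its median of 1.66 stayed below the cut-off. The 4 probe sets of CACNA1C, the other L-type gene here, ranged from -4.52 to 4.13 in NGP over the pool, so that no direction is read from the median of 0.22. CACNA1A, CACNA1E and CACNA1G, for the P/Q-, R- and a T-type channel, had ratios over the pool between -1.14 and 0.30 and were dim in nearly every probe set.

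All 3 listed alpha2delta subunits were overexpressed in NGP and 1 was in IMR-32, against 7% of all genes by definition. Such subunits raise the number of calcium channels at the membrane. CACNA2D4, of the same family but outside the list, was not called over the pool, at -0.58 in IMR-32 and -0.08 in NGP. CACNA2D1, the binding site of gabapentin, had signals of 252 and 3003 in IMR-32, 374 and 3654 in NGP and 104 and 410 in the pool. Each probe set was higher in both lines than in the pool, and the lines differed by 0.43. Its ratio over the pool was 2.07 in IMR-32 and 2.50 in NGP. CACNA2D2, with 1 probe set, was at 112 in IMR-32, 730 in NGP and 148 in the pool, so that NGP stood apart, by 2.30 over the pool and 2.70 over IMR-32. CACNA2D3, also with 1 probe set, was dim on all arrays, at 6.23, 49.4 and 7.98, and its ratio in NGP of 2.63 is not firm. Without _s_at and _x_at probe sets neither CACNA2D2 nor CACNA2D3 has a value.

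The calcium channel beta subunits, which bind the alpha1 subunits inside the cell, did not reach a cut-off in any comparison. CACNB3 was measured above the median of each array by both probe sets, and its ratio over the pool was 0.50 in IMR-32 and 0.32 in NGP. CACNB2 had ratios of 0.49 and 0.48, but its 6 probe sets reached 4.41 in IMR-32 and 3.19 in NGP. CACNB1 had ratios of -0.62 and -1.72, from 3 probe sets that disagreed (-0.97 to 0.60 for IMR-32 and -2.10 to 1.01 for NGP).

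Among the voltage-gated potassium channels, KCNC1, KCNQ5 and KCNH2 were overexpressed in each line. KCNC1 encodes Kv3.1, a channel of fast-spiking neurons. Its signals were 134 and 784 in IMR-32, 300 and 985 in NGP and 46.2 and 76.8 in the pool. Both lines exceeded the pool for both probe sets, with ratios of 2.45 in IMR-32 (5.45-fold) and 3.19 in NGP (9.12-fold).

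KCNQ5 encodes Kv7.5, a subunit of the M-current that restrains repetitive firing. Its signals were 127 and 1205 in IMR-32, 87.2 and 1357 in NGP and 26.4 and 163 in the pool. The lines were alike and above the pool, with ratios of 2.58 in IMR-32 and 2.39 in NGP, and NGP over IMR-32 was -0.19. Of its relatives, KCNQ3 had ratios of -0.19 and 0.25 from 3 probe sets that disagreed (-1.85 to 1.39 for IMR-32 and -1.13 to 2.42 for NGP). KCNQ1, the channel of heart and epithelia, was at -2.45 and -1.61 from signals that were dim in both lines.

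KCNH2 encodes hERG, a channel known for cardiac repolarization. Its signals were 530 and 1272 in IMR-32, 545 and 1970 in NGP and 111 and 415 in the pool. Both lines lay above the pool in each probe set. The ratio was 1.94 in IMR-32 (3.82-fold) and 2.27 in NGP (4.83-fold), and the lines differed by 0.34. The brightest probe set alone gave 1.62 in IMR-32, short of its cut-off. KCNH5, a relative of KCNH2, was dim on all arrays.

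**Figure D3:**
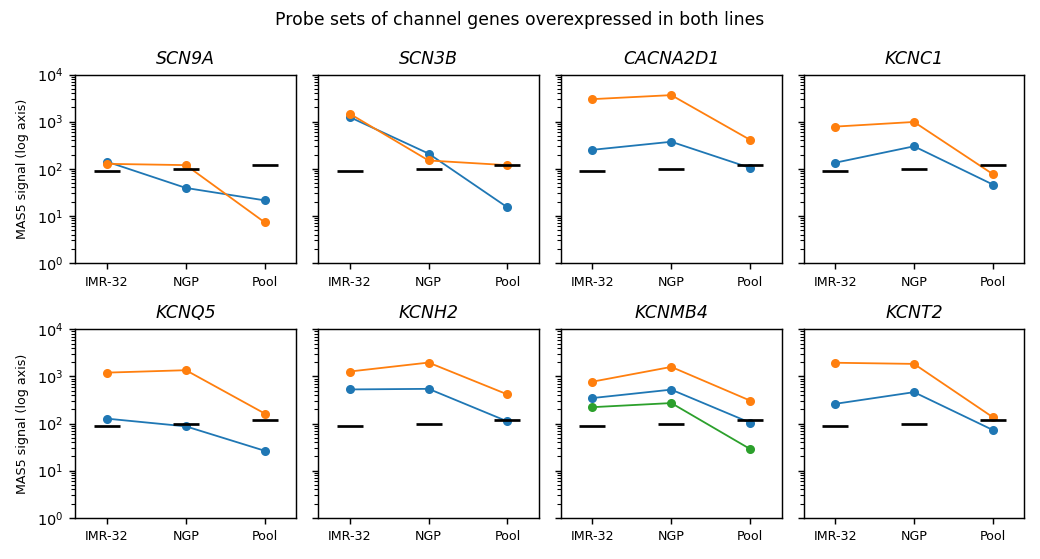
MAS5 signal (y-axis, log axis) on the IMR-32, NGP and pool arrays (x-axis) of each probe set (coloured lines), with array medians as black bars. The genes are the listed channel genes overexpressed over the pool in IMR-32 and in NGP. Every probe set lies lower in the pool than in either line, and SCN3B alone among these genes falls past the cut-off from IMR-32 to NGP (-2.93).

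KCNA1 and KCNA5 of the Shaker group and the A-type genes KCND1, KCND2 and KCND3 all had ratios below 0 in IMR-32, where 41.6% of all genes lie above 0. KCNA1, which encodes Kv1.1, had signals of 9.53 and 7.42 in IMR-32, 105 and 26.2 in NGP and 113 and 90.0 in the pool. IMR-32 was lowest for both probe sets, with a ratio of -3.58 over the pool, and NGP exceeded IMR-32 by 2.64. KCND2, which encodes the A-type channel Kv4.2, had signals of 11.5, 99.7 and 88.0 on its single probe set. Its ratio was -2.94 in IMR-32 and 0.18 in NGP, so that NGP over IMR-32 was 3.12. The pool signals of both genes were dim, which makes the size of the low IMR-32 ratios uncertain. KCNA5, KCND1 and KCND3 had ratios between -1.79 and -0.70 in the lines, from dim signals except for 1 KCND3 probe set in the pool. KCNC4 was at -0.62 in IMR-32, with probe sets from -3.84 to 0.76, and at -0.99 in NGP, with probe sets from -2.20 to -0.34.

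Potassium channels gated by calcium or sodium held the highest NGP ratio of the list. KCNT2, a sodium-activated channel, had signals of 262 and 1953 in IMR-32, 464 and 1846 in NGP and 72.9 and 136 in the pool. Both lines were above the pool for both probe sets and close to each other. The ratios were 2.84 in IMR-32 (7.18-fold) and 3.22 in NGP (9.29-fold), and NGP over IMR-32 was 0.37.

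KCNMB4 encodes the neuronal beta subunit of the large-conductance calcium-activated channel, and its gene lies at 12q15 (chromosome 12, 70366290 to 70434292) in a region that the study describes as amplified in NGP. Its 3 probe sets had signals of 348, 774 and 223 in IMR-32, 525, 1594 and 272 in NGP and 104, 307 and 28.8 in the pool. Each probe set was highest in NGP and lowest in the pool. The ratio was 1.74 in IMR-32 and 2.38 in NGP, and NGP over IMR-32 was 0.59, from 0.29 to 1.04 over the probe sets. The brightest probe set alone gave 1.34 in IMR-32, which is not a call. The part of the amplification in this small difference was not tested.

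KCNMA1, the pore-forming partner of KCNMB4, was not raised with it. Its bright probe set had signals of 203 in IMR-32, 442 in NGP and 946 in the pool, and the gene ratio was -1.37 in IMR-32 and -0.63 in NGP. Of the small-conductance channels, KCNN1 had signals of 439 in IMR-32, 175 in NGP and 438 in the pool on 1 probe set, and NGP over IMR-32 was -1.33. KCNN3 was dim in all but 1 probe set, which reached 111 in NGP, and NGP over IMR-32 spread between -2.48 and 4.03 across the probe sets.

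KCNJ6, a G-protein-gated inward rectifier, had a ratio of 2.37 in NGP and -0.33 in IMR-32. Its signals were 135 and 3.09 in IMR-32, 283 and 62.7 in NGP and 166 and 3.99 in the pool. NGP was highest for each probe set, by 0.77 over the pool for the bright probe set and by 3.98 for the dim one. The call in NGP was lost without dim probe sets, so its size is not firm.

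The tandem-pore potassium channels, which carry the background current of the resting membrane, moved in different directions. KCNK2, which encodes the mechanosensitive channel TREK-1, had signals of 282 in IMR-32, 10.6 in NGP and 158 in the pool on 1 probe set. NGP was dim while the other arrays were not. The ratio in NGP was -3.91 over the pool and -4.74 over IMR-32, and that in IMR-32 was 0.83 over the pool. Of the 43 listed genes, KCNK2 was the only one underexpressed in NGP over the pool. Among tandem-pore genes outside the list, KCNK6 (-3.51) and KCNK15 (-3.22, dim on all arrays) were also underexpressed there, and the other measured ones were not called.

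KCNK3, which encodes the acid-sensitive channel TASK-1, had signals of 642, 303 and 195 in IMR-32, 1215, 540 and 188 in NGP and 148, 132 and 150 in the pool. The ratio was 1.20 in IMR-32 and 2.04 in NGP. The third probe set was similar on all arrays (0.38 and 0.33 over the pool), and with the mean over probe sets the NGP ratio of 1.80 missed the cut-off. KCNK1 had ratios of -2.62 in IMR-32 and -0.68 in NGP, all 4 probe sets being higher in NGP than in IMR-32, by 1.04 to 2.37. KCNK9 was dim, with ratios of 1.26 and 1.74.

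**Figure D4:**
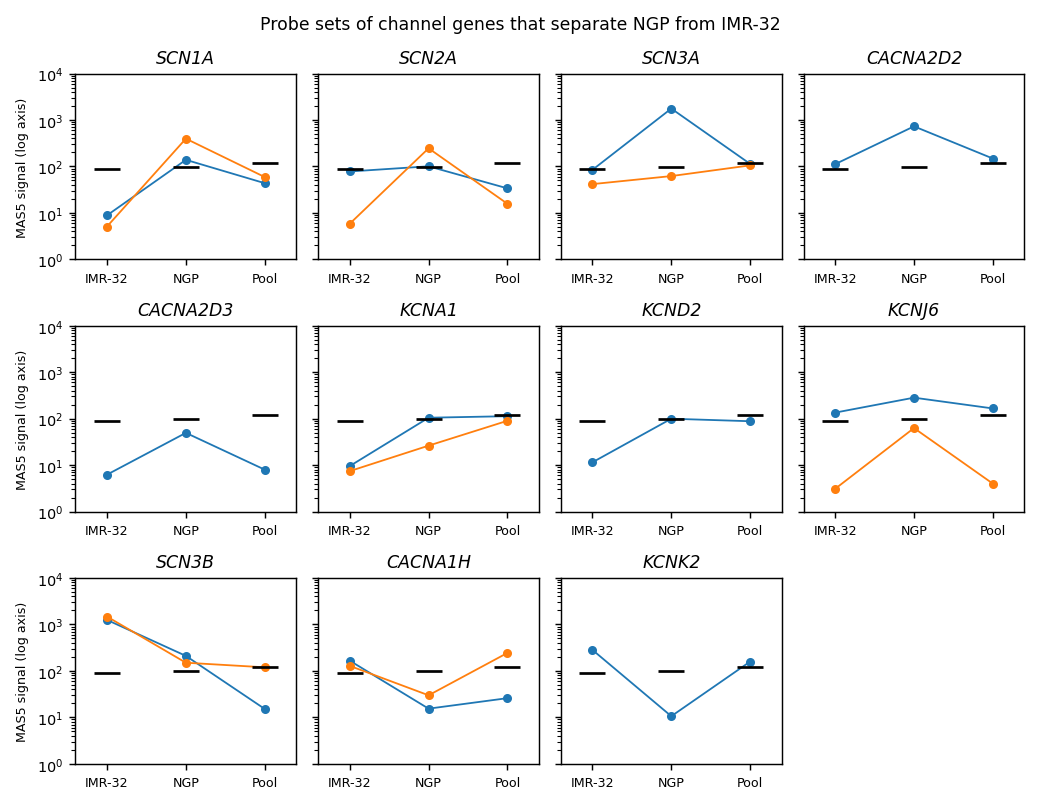
MAS5 signal (y-axis, log axis) on the IMR-32, NGP and pool arrays (x-axis) of each probe set (coloured lines), with array medians as black bars. The genes are the 11 listed channel genes past a cut-off of NGP over IMR-32. SCN1A rises from below 10 in IMR-32 to 139 and 396 in NGP, and SCN3B falls from 1247 and 1471 to 210 and 150.

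In all, 22 of the 43 genes (51.2%) passed no cut-off in any of the comparisons, against 73.5% of all genes. The genes next to the upper cut-off over the pool were SCN8A (1.69) inside and CACNA1B (1.38) outside in IMR-32, and KCNK3 (2.04) inside and SCN8A (1.82) outside in NGP.

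Of 94 other channel genes, 85 were measured. In IMR-32, 11 were overexpressed (12.9%) and 3 underexpressed (3.53%), and in NGP 6 were overexpressed (7.06%) and 5 underexpressed (5.88%), against 7.0% of all genes in each direction. Their median ratio was -0.24 in IMR-32 and -0.49 in NGP. Among those not dim, KCNH8, a relative of KCNH2, was highest in both lines, with signals of 168 in IMR-32, 518 in NGP and 15.3 in the pool and ratios of 3.45 and 5.08. HCN3, a pacemaker channel gene, followed in NGP with a ratio of 3.85 and was at 2.26 in IMR-32, where KCNG1, a modifier of Kv2 channels, was at 2.42. KCNJ8, a subunit of ATP-sensitive channels, was at 2.33 in NGP. At the lower end in IMR-32 were KCNN4, the intermediate-conductance calcium-activated channel (-4.78), KCNK6 (-2.88) and KCNAB2 (-2.74, not past the cut-off). In NGP they were KCNK6 (-3.51), KCNG4 (-3.50) and KCNF1 (-3.46). All 3 measured HCN genes (HCN2, HCN3 and HCN4) were overexpressed in IMR-32 and 2 in NGP (HCN2 and HCN3). The group was picked out after its values were seen. HCN2 was dim in IMR-32 in both probe sets (72.0 and 89.1). Its ratios of 1.73 in IMR-32 and 1.91 in NGP lay just past the cut-offs. In NGP over IMR-32, 5 of the 85 were overexpressed (5.88%) and 10 underexpressed (11.8%), again against 7.0%.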

How the data were processed

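Gene expression was measured in IMR-32, NGP and the reference pool on 1 Affymetrix U133 Plus 2.0 array each. The authors deposited signal intensities computed by MAS5 in affy (Bioconductor, version not stated). The highest and lowest 2% of signals apart, each array has a mean of 500. After removal of 62 control probe sets, 41091 name 1 gene, 1801 several and 11721 none, and 41037 of the first were matched by gene ID to current symbols. Log2 ratios were taken per probe set without a pseudocount. The members and lists were chosen with earlier results of these data known. All members were named. Of the other channel genes the 3 highest and 3 lowest in each line, among genes with a probe set that was not dim, were named by rule. The 10 alternatives covered scaling, pseudocount, dim probe sets, probe set summaries and cut-offs. The gene ratio code was tested on simulated data. The number of arrays limits the precision. Ratios were computed in pandas 2.3.3 with numpy 2.4.6 (Python 3.11.15) and plotted with matplotlib 3.10.9.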

Additional observations from a re-analysis of the deposited data

Results flagged for a closer look

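For 6 of the 43 listed channel genes, every probe set of one line lay on the opposite side of the pool from the other line. In each of these, NGP over IMR-32 also passed a cut-off. Channel genes outside the list met the same rule. KCNJ9 did with NGP the higher line, and KCNJ2, KCNJ4, KCNH6, KCNE2, KCNG2 and KCNMB3 with IMR-32 the higher. All but KCNJ4 and KCNH6 of these were dim in every probe set on all arrays. The rule was not applied to all genes, so no background share stands beside the count of 6. The difference was not tested, since there is 1 array per line. SCN1A had a log2 ratio over the pool of -2.92 in IMR-32 and 2.21 in NGP. CACNA2D2 was at -0.40 and 2.30, CACNA2D3 at -0.36 and 2.63, KCNJ6 at -0.33 and 2.37, and KCND2 at -2.94 and 0.18. KCNK2 ran the other way, at 0.83 in IMR-32 and -3.91 in NGP. CACNA2D2, CACNA2D3, KCND2 and KCNK2 rest on 1 probe set each, and all CACNA2D3 signals were dim.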

How the results depend on the processing

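No paired analysis was possible because each sample has 1 array. Over the 10 alternatives, the number of overexpressed channel genes was 6 to 11 in IMR-32, 11 to 19 in NGP and 5 to 10 between the lines. These ranges span cut-offs that call 5%, 7% or 10% of all genes: with the top 5% the counts were 6, 11 and 8, and with the top 10% they were 10, 19 and 10. The count between the lines was 5 of 40 without _s_at and _x_at probe sets, where fewer genes are measured. Underexpressed genes in IMR-32 numbered 1 with log2(signal + 32), without dim probe sets, with cut-offs over all probe sets and with the top and bottom 5%, and 5 with the top and bottom 10%. Without dim probe sets 11 of 29 genes were overexpressed in IMR-32 and 16 of 34 in NGP, against 7% of the genes kept. This setting kept a probe set when the higher of the compared signals was not dim. A gene high in a line could thus be kept through that line alone, so these larger shares are no independent support. The median ratio of the channel genes was -0.19 to 0.62 for IMR-32, 0.29 to 0.79 for NGP and 0.34 to 0.59 between the lines. The highest value over the pool in each line came without dim probe sets. There the median of all genes kept was -0.12 for IMR-32 and -0.15 for NGP. Quantile normalization moved the median of all genes from -0.23 to -0.02 for IMR-32 and from -0.22 to -0.07 for NGP, and ratios near 0 have no settled direction. No call changed sign. The overexpressed genes called under all 10 alternatives were SCN9A, SCN3B, CACNA2D1, KCNC1, KCNQ5 and KCNT2 in IMR-32 and CACNA2D1, KCNC1, KCNQ5, KCNH2, KCNMB4 and KCNT2 in NGP. Between the lines SCN1A, KCNA1, KCND2, SCN3B, CACNA1H and KCNK2 were, and the low KCNK2 in NGP over the pool was. The low calls in IMR-32 were each lost under at least 1 alternative. Dim signals limit these ratios.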

Other observations

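The ratios of the listed channel genes in NGP over the pool had a gap. None of them had a ratio between CACNB2 (0.48) and SCN3A (1.60), while 17.8% of all genes lay inside this gap. At or below it were 24 of the listed genes, and 19 were at or above it. Channel genes outside the list did lie inside it, such as SCN10A (0.80), KCNAB3 (1.03) and KCNAB1 (1.24). The upper edge, SCN3A, is the median of 2 probe sets at -0.77 and 3.96. Apart from the genes at the extremes of the list, the widest gap in IMR-32 was 0.66 and that between the lines 0.57. The gap was seen in the values and was not tested.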
